A study of Mus musculus with 6 samples.

Results

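The genes described here are 38 transcripts of the cell division cycle, taken by symbol from the 23122 genes of a count table made from CT26 tumors. They form 2 subsets, fixed by function: 18 genes of DNA replication and its onset, and 20 genes of mitosis. All 38 were found and all 38 passed the filter on low counts. CT26 is a murine colorectal carcinoma line, here 1 line implanted under the skin of BALB/c mice, all female and 6 to 8 weeks old. Each animal received 500000 cells, and treatment began at tumor volumes of 100 to 200 mm3. In the control group 3 tumors came from mice given vehicle, and in the treated group 3 came from mice given TP-18, an antagonist of the prostaglandin E2 receptors EP2 and EP4, given orally every day for 3 weeks at 50 mg/kg. The RNA came from whole tumors, so host cells contributed to every value. The labels do not say that each tumor came from a separate mouse, and p-values cover only the spread between these samples.

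A dividing cell copies its DNA once and then parts the copies. Before replication, Cdc6 and Cdt1 load the MCM ring, the replicative helicase made of Mcm2 to Mcm7, onto origins. Cyclin E with its kinase, Gins2 and other factors take part in starting the helicase. E2F transcription factors switch on this program, which also supplies nucleotides through Rrm1, Rrm2 and Tyms. The mitotic program follows later in the cycle. It includes cyclins A and B with Cdk1, the kinases Plk1, Aurka and Aurkb, spindle motors such as Kif11, and the checkpoint proteins Bub1, Bub1b and Ttk that delay separation until chromosomes are attached. Transcripts of both programs are widely used as a readout of how many cells in a tumor are cycling. In bulk tissue, fewer cycling cells and less of these transcripts in each cycling cell cannot be told apart.

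The promoters of the 2 programs hold different motifs, as windows of 300 bases (250 before to 50 after an annotated start) from RefSeq for GRCm38.p6 show. The table held windows for 15 of the 18 replication members (18 windows) and 16 of the 20 mitosis members (16 windows). Matches were sought on both strands to E2F (TTTCCCGC, TTTCGCGC, TTTGCCGC or TTTGGCGC), to the cell cycle genes homology region or CHR (TTTGAA), and to the NF-Y box (CCAAT). E2F matches on opposite strands can overlap, as in Mcm5 and Mcm6, and a CHR can share 1 letter with an NF-Y box. The 250 upstream bases are printed for members that carry each kind of match and for both genes whose level passed the test, with matches to any of the 3 motifs in capitals.
Mcm5 (chr8:75109259-75109508, forward strand): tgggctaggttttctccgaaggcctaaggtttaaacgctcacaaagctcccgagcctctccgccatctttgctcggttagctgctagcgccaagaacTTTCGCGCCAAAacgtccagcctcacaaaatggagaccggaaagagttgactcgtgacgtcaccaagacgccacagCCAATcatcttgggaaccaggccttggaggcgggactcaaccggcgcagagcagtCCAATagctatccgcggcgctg
Mcm6 (chr1:128359706-128359955, reverse strand): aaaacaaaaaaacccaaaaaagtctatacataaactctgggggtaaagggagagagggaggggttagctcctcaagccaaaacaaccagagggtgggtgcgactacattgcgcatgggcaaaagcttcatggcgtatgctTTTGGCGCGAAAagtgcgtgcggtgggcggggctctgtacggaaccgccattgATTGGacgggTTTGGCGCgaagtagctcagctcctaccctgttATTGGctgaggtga
Cdc6 (chr11:98907901-98908150, forward strand): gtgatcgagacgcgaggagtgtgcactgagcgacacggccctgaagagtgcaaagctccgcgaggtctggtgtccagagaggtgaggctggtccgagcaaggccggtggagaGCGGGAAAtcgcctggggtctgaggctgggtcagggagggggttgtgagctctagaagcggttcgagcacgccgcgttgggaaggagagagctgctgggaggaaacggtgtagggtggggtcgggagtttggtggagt
E2f2 (chr4:136172024-136172273, forward strand): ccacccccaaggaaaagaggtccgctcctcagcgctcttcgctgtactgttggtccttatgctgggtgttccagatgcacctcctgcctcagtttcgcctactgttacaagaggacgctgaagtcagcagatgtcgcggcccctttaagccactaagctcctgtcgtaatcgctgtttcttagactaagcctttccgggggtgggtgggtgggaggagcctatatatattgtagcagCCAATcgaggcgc
Cdk1 (chr10:69352913-69353162, reverse strand): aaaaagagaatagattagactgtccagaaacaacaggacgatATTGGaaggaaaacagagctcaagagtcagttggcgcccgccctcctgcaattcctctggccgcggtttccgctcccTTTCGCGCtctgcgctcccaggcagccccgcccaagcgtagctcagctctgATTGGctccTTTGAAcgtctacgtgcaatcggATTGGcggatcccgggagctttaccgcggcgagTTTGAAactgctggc
Cdc20 (chr4:118437344-118437593, reverse strand): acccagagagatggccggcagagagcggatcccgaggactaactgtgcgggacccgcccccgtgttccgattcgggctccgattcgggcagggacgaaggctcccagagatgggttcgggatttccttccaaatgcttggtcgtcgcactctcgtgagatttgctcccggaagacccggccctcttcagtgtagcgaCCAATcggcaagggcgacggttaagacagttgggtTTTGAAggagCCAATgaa
Top2a (chr11:99024190-99024439, reverse strand): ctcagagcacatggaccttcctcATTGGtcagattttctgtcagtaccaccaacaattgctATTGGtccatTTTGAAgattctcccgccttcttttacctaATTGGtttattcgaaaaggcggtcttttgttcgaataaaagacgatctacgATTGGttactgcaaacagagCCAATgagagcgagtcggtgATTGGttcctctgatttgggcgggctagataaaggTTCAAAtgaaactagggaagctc

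Mcm5, Mcm6 and Cdc6 show E2F letters upstream of the start used for their window, and no CHR. The annotated Cdc6 gene begins at 98907709, before its printed window, so its letters lie inside the gene and precede a later start. Cdc20 and Top2a show CHR letters, 2 and 6 NF-Y boxes and no E2F, and Cdk1, the mitotic kinase, shows all 3. E2f2 has a second annotated start, whose window holds a CHR and 3 NF-Y boxes, while the window printed here has its E2F match in the 50 bases after the start. An E2F match was present in 8 of 18 replication windows (44.4%) and in 1 of 16 mitosis windows (6.25%), against 2.26% of all 32851 windows of the table. A CHR match was present in 2 replication windows (11.1%) and 11 mitosis windows (68.8%), against 17.9% of all windows. NF-Y boxes were common in both, at 72.2% and 87.5%, against 37.4%. Related genes that are not members are given beside these shares. E2F letters were in 24% of 50 windows of other replication genes and 10.5% of 57 windows of other mitosis genes, and CHR letters in 20% and 63.2%. A match describes letters in a window and is not evidence of binding.

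**Figure D1:**
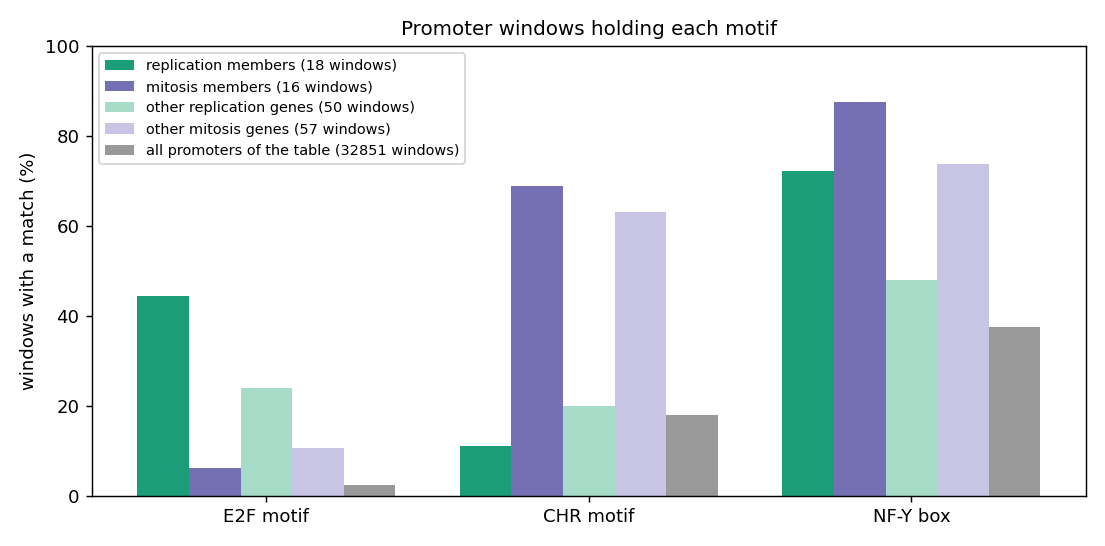
Share of promoter windows (percent, y axis) with at least 1 match to each motif, for the members, related genes and all windows of the RefSeq table. E2F letters stand out in replication windows (44.4% against 6.25% for mitosis) and CHR letters in mitosis windows (68.8% against 11.1%).

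Libraries held 34813482 to 36489081 counts. Levels are CPM, counts scaled by library total and edgeR's TMM factor, and changes are TP-18 minus vehicle on the log2 scale. Of 11 epithelial markers, 3 passed the filter. Krt20, an intestinal keratin, was the most abundant, and Epcam had at most 24 counts. Summed marker levels did not overlap between groups for 5 of 8 lists. Of all tested genes, taken singly, 18% were higher and 17.8% lower without overlap. By the test described below, 7.09% were called higher and 5.26% lower. T cell markers summed to 17.9 to 35.3 CPM in vehicle and 97.6 to 108 CPM in TP-18 tumors (12 of 12 called higher). Macrophage markers summed to 1646 to 2338 and 2978 to 3882 CPM (3 of 10 called higher, 2 with a negative change). Skeletal muscle markers summed to 10.1 to 32.9 and 55.3 to 117 CPM (4 of 9 called higher). Red cell markers summed to 66.3 to 394.7 and 14.8 to 33.9 CPM (4 of 5 tested lower). The 11 epithelial markers summed to 282 to 352.5 and 194 to 237 CPM (1 of 3 tested lower). The 3 tested markers did not move together, as 2 had negative changes and 1 a positive change of 1.15 that was not called. Their mean log2 CPM overlapped between groups, at 3.87 to 4.34 in vehicle and 3.98 to 4.21 in TP-18 tumors. The groups overlapped for fibroblast markers (2360 to 6509 and 2684 to 4250 CPM), endothelial markers (67.4 to 166 and 110.7 to 229.9 CPM) and neutrophil markers (32.1 to 325 and 58.1 to 84.7 CPM), with 0 called. The part of these levels in the results was not tested.

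E2f2 and Top2a rose in the TP-18 tumors, and the other 36 members were not called. The test was edgeR's quasi-likelihood F test, two-sided, with Benjamini-Hochberg adjustment over all 14189 tested genes, and a gene was called at an adjusted p under 0.05. Of the 38 members 2 were called, both higher: E2f2 among the 18 replication members and Top2a among the 20 mitosis members. None was called lower by edgeR, and 3 replication and 2 mitosis members were higher and 1 mitosis member lower at an unadjusted p under 0.05. Over all tested genes, 7.09% were called higher and 5.26% lower (12.4% in all), and 15.3% and 14.6% passed the unadjusted threshold in each direction. These shares come from 1006 genes higher and 747 lower, a split that was 1376 and 215 with limma on log2 FPKM, which has no TMM scaling. DESeq2 also called 1 member higher and 0 lower in each subset. The median change was 0.12 over the replication members and 0.025 over the mitosis members, beside -0.01 over all tested genes. With 1 library left out, the replication median ran from 0.050 (without TP-18 1) to 0.19 (without TP-18 2), and the mitosis median from -0.049 (without TP-18 1) to 0.12 (without vehicle 1 or TP-18 2), so its sign depended on TP-18 1. The interquartile range of changes was -0.09 to 0.24, -0.02 to 0.09 and -0.20 to 0.26 for these 3 sets.

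The intervals show how large a change the data leave room for. For the 36 members not called, fitted changes ran from -0.19 (Tpx2) to 0.34 (Cenpe), 23 of them positive and 13 negative, while 51.1% of all tested genes had a change below 0. Their 95% confidence intervals reached at most -0.49 on the low side (Ccne2) and 0.88 on the high side (Cdc6), so that none included a 2-fold change in the fit of all 6 tumors. The upper limit was not stable for Cdc6, whose interval passed 2-fold without vehicle 1 (0.64 ± 0.17, upper bound 1.05, adjusted p = 0.0503 by edgeR), TP-18 2 (upper bound 1.07) or TP-18 3 (1.05), while the other 35 stayed within it whichever library was left out. For 31 of the 36 the interval also lay within 1.5-fold, the others being Rrm2, Tyms, Cdc6, Ccne1 and Cenpe. Across all tested genes 70.2% had an interval within 2-fold, and among the members 17 of 18 replication and 20 of 20 mitosis genes did. Expression levels were not matched in this comparison. The median standard error was 0.10 for replication and 0.11 for mitosis members, and 0.14 over all tested genes. A p above the threshold does not show that a gene was the same in both groups.

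**Figure D2:**
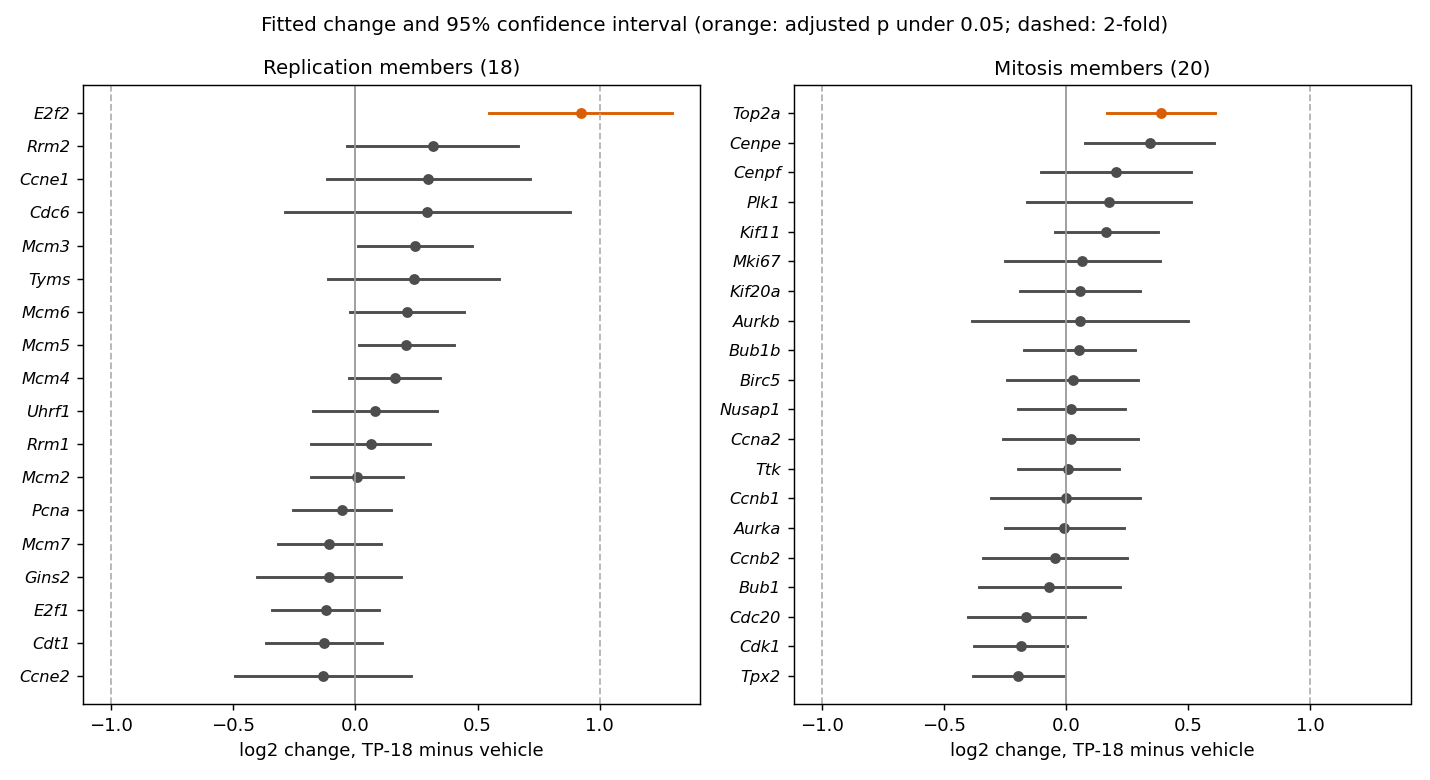
Fitted log2 change (TP-18 minus vehicle, x axis) with its 95% confidence interval for each member, ordered by size, with 3 tumors per group. Only E2f2 (0.92) and Top2a (0.39), in orange, passed the test, and the interval of E2f2 alone crosses a 2-fold line.

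Among transcription factors and regulators of the replication program, E2f2 was the exception. E2f2 (Entrez 242705, chromosome 4, 136172274 to 136196057 in GRCm38) encodes an activating E2F. It measured 7.29, 6.06 and 6.31 CPM in the vehicle tumors and 14.03, 10.5 and 12.7 CPM in the TP-18 tumors. All TP-18 tumors lay above all vehicle tumors. The change was 0.92 ± 0.16 (standard error, SE), 1.89-fold, with an adjusted p of 0.0138 in edgeR's quasi-likelihood test. The call was lost without vehicle 2 (adjusted p = 0.0650), TP-18 1 (0.0543) or TP-18 3 (0.0627). E2f1, its paralog and a central driver of entry into S phase, measured 61.6, 60.8 and 73.3 CPM against 60.7, 62.5 and 56.6 CPM, and the groups overlapped (change -0.12 ± 0.095, adjusted p = 0.428 by edgeR). Uhrf1, which maintains DNA methylation behind the fork, had a change of 0.080 ± 0.11. By the deposited FPKM, a level scaled by gene length and library total, E2f2 was the scarcest member, at 1.25 ± 0.18 FPKM in vehicle and 2.61 ± 0.40 FPKM in TP-18 tumors (SD, n = 3 each), and E2f1 was at 19.99 ± 1.66 and 20.3 ± 0.70 FPKM.

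Of the 6 helicase subunits none was called, and fitted changes were positive in all but Mcm7. Mcm5 measured 108, 104 and 109 CPM in vehicle and 136, 114 and 121 CPM in TP-18 tumors, the only subunit whose groups did not overlap (change 0.21 ± 0.084, adjusted p = 0.143 by edgeR). Groups of higher TP-18 values without overlap made up 18% of all tested genes. Mcm3 measured 123, 101.5 and 105 CPM against 142, 122 and 127 CPM, with TP-18 2 just under vehicle 1. Mcm6 measured 174, 175 and 172 CPM against 226, 174 and 203 CPM, so TP-18 2 sat among the vehicle tumors. Mcm4 measured 106, 103 and 116 CPM against 129, 115 and 119 CPM, also with an overlap. The changes of Mcm3, Mcm6 and Mcm4 were 0.24 ± 0.10, 0.21 ± 0.10 and 0.16 ± 0.081 (SE), with adjusted p-values of 0.149, 0.201 and 0.223 by edgeR. Mcm2 and Mcm7, subunits of the same ring, had changes of 0.0049 ± 0.082 and -0.11 ± 0.091. Per length, the vehicle means of the subunits ran from 28.7 FPKM (Mcm4) to 66.2 FPKM (Mcm7).

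Loading factors and nucleotide enzymes had fitted changes of both signs, none of them called. Cdc6 and Cdt1, which act together to load the helicase, had changes of 0.29 ± 0.25 and -0.13 ± 0.10, and Gins2, a subunit of the active helicase complex, -0.11 ± 0.13. Cdc6 was at 19.1, 10.9 and 10.9 CPM in vehicle and 20.03, 13.96 and 16.1 CPM in TP-18 tumors. Vehicle 1 stood well above the other vehicle tumors and Cdc6 had the largest SE of any member. Rrm2, the regulated subunit of ribonucleotide reductase, measured 130.2, 93.5 and 98.0 CPM against 148, 114 and 139 CPM, again with vehicle 1 inside the TP-18 range (change 0.32 ± 0.15, adjusted p = 0.205 by edgeR). Its partner Rrm1, the large subunit, had a change of 0.062 ± 0.11, and Tyms, which makes thymidylate, 0.24 ± 0.15. Without vehicle 1, Mcm3, Rrm2 and Ccne1 passed beside E2f2, with adjusted p-values of 0.0445, 0.0376 and 0.0364 by edgeR. The cyclin E genes, which encode interchangeable partners of Cdk2, had opposite signs at 0.30 ± 0.18 (Ccne1) and -0.13 ± 0.16 (Ccne2). Pcna, the sliding clamp of DNA polymerases, was the most abundant member per length and measured 282, 272 and 319 CPM against 289, 265 and 287 CPM, with overlap.

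Top2a was the one mitosis member called. Top2a (Entrez 21973, chromosome 11, 98992947 to 99024199) encodes topoisomerase II alpha, which untangles sister chromatids. It measured 324, 286 and 317 CPM in vehicle and 442, 365 and 405 CPM in TP-18 tumors, with no overlap between groups. The change was 0.39 ± 0.096 (SE), 1.31-fold, with an adjusted p of 0.0381 by edgeR. The call was lost without vehicle 2 (adjusted p = 0.131), vehicle 3 (0.0638), TP-18 1 (0.126) or TP-18 3 (0.123). It was also lost when the gene length trend of all tested genes was removed (0.0521). Mki67, the gene of the proliferation antigen Ki-67, measured 359, 409 and 341 CPM against 460.2, 322 and 379.7 CPM. Its highest and its lowest values were both in TP-18 tumors, and its change was 0.067 ± 0.14 (adjusted p = 0.778 by edgeR).

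None of the other kinetochore and spindle genes was called, and their fitted changes had both signs. Cenpe, a kinetochore motor, measured 96.4, 96.3 and 91.4 CPM in vehicle and 139, 101.02 and 120.1 CPM in TP-18 tumors, without overlap (change 0.34 ± 0.12, adjusted p = 0.0893 by edgeR), and passed without TP-18 2 (0.0458). Cenpf, a further kinetochore protein, had a change of 0.21 ± 0.13. Tpx2, which activates Aurora A on the spindle, measured 192, 184 and 170.4 CPM against 168, 149 and 160.3 CPM, and every TP-18 tumor lay under every vehicle tumor (change -0.19 ± 0.081, adjusted p = 0.152 by edgeR). Groups of lower TP-18 values without overlap made up 17.8% of all tested genes. Kif11, the motor that pushes spindle poles apart, measured 98.4, 96.7 and 97.1 CPM against 117, 95.8 and 115 CPM, with TP-18 2 below all vehicle tumors. Kif20a, Nusap1 and Birc5, which act in the spindle midzone or in spindle assembly, had changes of 0.059 ± 0.11, 0.022 ± 0.095 and 0.027 ± 0.12, and each took the other sign when 1 library was left out.

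Cdk1 and the other mitotic regulators were not called. Cdk1, the mitotic kinase, measured 139, 125 and 138 CPM in vehicle and 124, 109 and 121 CPM in TP-18 tumors, lower in all 3 without overlap (change -0.19 ± 0.083, adjusted p = 0.178 by edgeR). Its cyclins Ccna2, Ccnb1 and Ccnb2 had changes of 0.019 ± 0.12, -0.00086 ± 0.13 and -0.044 ± 0.13. Cdc20, which activates the anaphase-promoting complex, measured 128, 125 and 111 CPM against 120.2, 94.7 and 110.4 CPM, with overlap (change -0.16 ± 0.10). The checkpoint genes Bub1, Bub1b and Ttk had changes of -0.068 ± 0.13, 0.055 ± 0.098 and 0.0098 ± 0.090, and the kinases Aurka, Aurkb and Plk1 of -0.0072 ± 0.11, 0.059 ± 0.19 and 0.18 ± 0.15. Of all 38 members, 32 had overlapping groups, 4 were higher and 2 lower without overlap. Over all 14189 tested genes, 18% were higher and 17.8% lower without overlap.

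**Figure D3:**
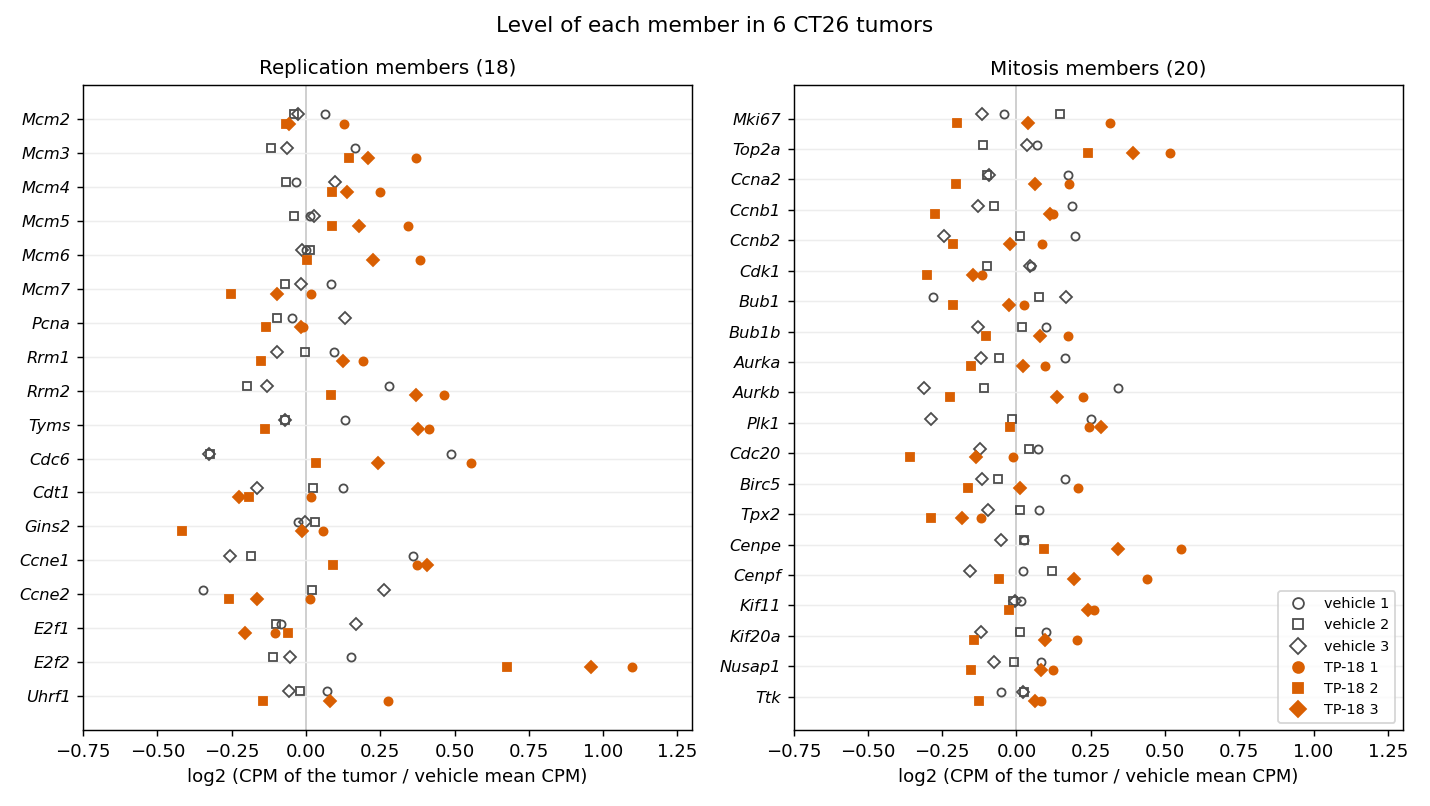
Level of each member in each tumor as the log2 ratio of its CPM to the vehicle mean (x axis), with vehicle as open grey and TP-18 as filled orange symbols. E2f2 and Top2a separate the groups upward, while in most rows the symbol of TP-18 2 lies lowest and that of TP-18 1 highest among the treated tumors.

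The members shared an order among the TP-18 tumors. In 34 of 38 members TP-18 1 was higher than TP-18 3 and TP-18 3 higher than TP-18 2, an order held by 18.6% of all tested genes. It held in 15 of 18 replication members, 19 of 20 mitosis members and 82 of 109 related genes outside the membership. TP-18 1 had the highest value of all 6 tumors in 23 members, and TP-18 2 the lowest in 19. These shares were 14.1% and 16.1% over all tested genes, and 48.6% and 44.0% over the 109 related genes. The mean log2 CPM of the replication members was 6.21, 6.05 and 6.09 in vehicle and 6.39, 6.09 and 6.27 in TP-18 tumors 1, 2 and 3. For the mitosis members it was 6.78, 6.68 and 6.60, and 6.87, 6.55 and 6.77. The group means differed by 0.13 and 0.045, the TP-18 tumors spanned 0.30 and 0.32 and the vehicle tumors 0.16 and 0.18. The median SD of log2 CPM within the TP-18 group was 0.16 for both subsets and 0.13 for all tested genes, and within the vehicle group 0.12 and 0.13 against 0.18.

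Of 8 marker lists, 7 ran in the opposite order, with TP-18 2 highest and TP-18 1 lowest. In TP-18 1, 3 and 2, fibroblast markers summed to 2684, 3805 and 4250 CPM, macrophage markers to 2978, 3198 and 3882 CPM, and endothelial markers to 110.7, 157.5 and 229.9 CPM. T cell, neutrophil, red cell and epithelial markers followed, and skeletal muscle markers were the exception. T cell sums were 97.6, 100.1 and 108 CPM, and epithelial sums 194, 210 and 237 CPM. The share of all tested genes in this opposite order was not counted. The replication members summed to 2143, 1976 and 1777 CPM across the same tumors and the mitosis members to 2955, 2701 and 2319 CPM. With 3 tumors no test was made, and the part of other cells in the order was not tested.

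TP-18 1 had the highest mean of the 6 tumors in both subsets, while the lowest vehicle tumor was vehicle 2 for replication and vehicle 3 for mitosis. The mitosis mean exceeded the replication mean by 0.57, 0.63 and 0.50 in the vehicle tumors and by 0.48, 0.46 and 0.51 in the TP-18 tumors, on the log2 scale. The group means of this difference were 0.57 ± 0.06 and 0.48 ± 0.03 (SD, n = 3 each), and vehicle 3 overlapped the TP-18 range. Between medians of fitted changes, mitosis minus replication was -0.10, and it was -0.025 without vehicle 1.

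**Figure D4:**
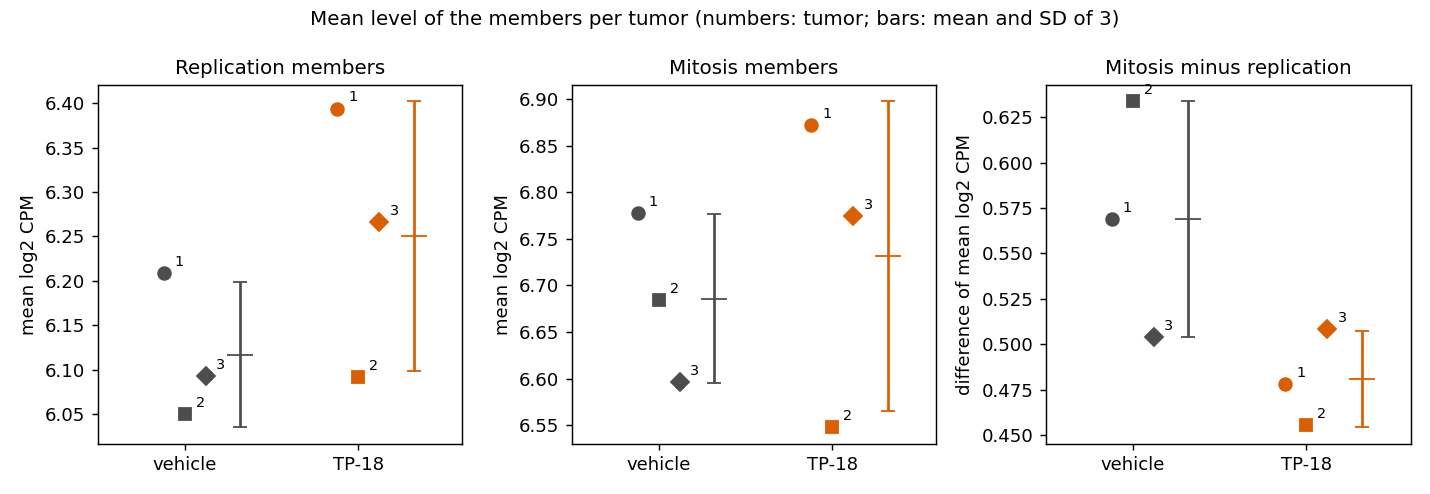
Mean log2 CPM of the replication members, of the mitosis members, and their difference (y axes, not starting at 0), with 1 point per tumor and the mean ± SD of 3 beside each group. In both subsets TP-18 1 is highest and the TP-18 group is wider than the vehicle group (0.30 and 0.32 against 0.16 and 0.18).

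Other genes of the pathway, from lists made by function, held calls in both directions. Over all tested genes 7.09% were called higher and 5.26% lower. Of 50 other replication genes, 1 was higher and 1 lower, with a median change of 0.085. Pola2, a subunit of the primase-polymerase complex, went from 34.97 ± 2.12 to 44.7 ± 1.80 CPM (SD, n = 3, adjusted p = 0.0329 by edgeR). Dut, which removes dUTP from the nucleotide pool, measured 98.1, 89.8 and 85.4 CPM in vehicle and 63.0, 64.2 and 67.7 CPM in TP-18 tumors, clearly apart, and fell by 0.49 ± 0.080 (adjusted p = 0.0105). Of 59 other mitosis genes, 1 was higher and 2 lower, with a median of -0.045. These were Kif15, a spindle motor (0.37 ± 0.098, adjusted p = 0.0459), Zwint, a kinetochore protein (-0.34 ± 0.089, 0.0433), and Cks2, a Cdk subunit (-0.32 ± 0.079, 0.0376). Foxm1 and Mybl2, transcription factors of the mitotic genes, had changes of -0.095 ± 0.11 and 0.25 ± 0.14, with adjusted p-values of 0.612 and 0.292 by edgeR.

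Among regulators of G1 and checkpoints, Atm rose and Myc fell. Of 41 such genes, 2 were higher and 1 lower, with a median of 0.035, beside 7.09% higher and 5.26% lower over all tested genes. Atm, the kinase that senses DNA breaks, measured 34.1, 36.2 and 34.9 CPM in vehicle and 59.8, 62.8 and 61.6 CPM in TP-18 tumors. Values were tight in each group and far apart, a rise of 0.81 ± 0.073 (adjusted p = 0.00171 by edgeR). Myc, a driver of growth and G1 entry, measured 267, 220.02 and 190.3 CPM against 136, 134 and 152 CPM and fell by 0.68 ± 0.13 (adjusted p = 0.0163). Its call was lost without vehicle 2 (0.0671), TP-18 1 (0.0575) or TP-18 2 (0.0577). Rbl1, the pocket protein p107 that represses E2F targets, rose by 0.41 ± 0.11 (adjusted p = 0.0496). Cdkn1a, the inhibitor p21, measured 168, 166 and 214 CPM against 107, 149.96 and 136 CPM, below all vehicle tumors but short of the threshold (-0.48 ± 0.15, adjusted p = 0.0744). DESeq2 called it (0.0175). Ccnd1, cyclin D1, had a change of 0.097 ± 0.13. Of the 8 pathway genes called, Atm and Dut passed edgeR's test whichever tumor was left out, while Pola2, Kif15, Zwint, Cks2 and Rbl1 lost their calls in at least 5 of these 6 fits.

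Fitted changes followed gene length to some degree. Across the 38 members, the length used in the deposited FPKM and the change had a Pearson r of 0.36 on log2 length and a Spearman rho of 0.42. Across 109 related genes these were 0.30 and 0.27, and across all 14189 tested genes 0.079 and 0.15. Genes are not independent replicates. The 13 shortest members, up to 3.04 kb, had a median change of -0.0072 and the 13 longest, from 4.00 kb, 0.21. Cenpf, Mki67 and Cenpe, at 11.4, 10.3 and 7.81 kb, were among the longest, and Gins2 and Pcna, at 1.04 and 1.26 kb, the shortest. Each tumor's deviation from the mean of 6 correlated with length over all tested genes at -0.17, 0.018 and -0.12 in vehicle tumors 1 to 3, and at 0.090, 0.16 and 0.067 in TP-18 tumors 1 to 3 (Spearman). Over the 38 members the values were -0.52, -0.10 and -0.17 in vehicle and 0.48, 0.14 and 0.26 in TP-18 tumors. The largest in size were those of vehicle 1 and TP-18 1. Each library's length trend was then fitted over all tested genes and removed, which need not remove the stronger trend of the members. After this E2f2 remained called (0.90, adjusted p = 0.0157 by edgeR) and Top2a had 0.36 (0.0521). Cks2, at 0.694 kb, moved from -0.32 to -0.13 (0.296). The source of the length trend was not tested.

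**Figure D5:**
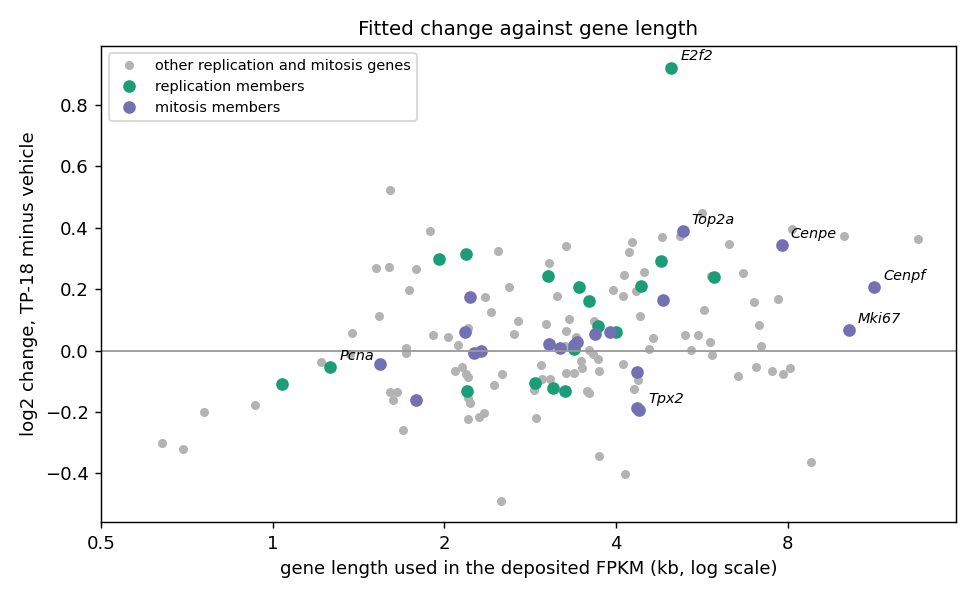
Fitted log2 change (TP-18 minus vehicle, y axis) against gene length in kb (x axis, log scale) for replication members, mitosis members and 109 related genes. Long genes such as Top2a, Cenpe and Cenpf lie above 0, while the 13 shortest members have a median of -0.0072, with a Spearman rho of 0.42 over all members.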

How the data were processed

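RNA sequencing of 6 tumors was used, 3 per group by the sample labels. The authors deposited whole-number counts per gene without normalization, and FPKM values. The deposited FPKM equal the count divided by a fixed gene length and the library total, checked in 15884 genes. Per the submitters' processing notes, fastp, HISAT2, HTSeq and GRCm38 were used, and versions, strandedness and the handling of reads with several map positions were not given in the sources used here, so genes with pseudogene copies, such as Ccnb1, are uncertain. PCR copies cannot be recognized.

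Counts were tested in R 4.3.3 with edgeR 4.0.16 (filterByExpr with minimum count 10 and total 15, TMM, group as the only term, robust quasi-likelihood F test), and 14189 of 23122 genes were tested. The procedure was tested on simulated data whose changed genes differed by 2-fold or more. Smaller changes, such as those fitted for the members, were not covered. SE came from the F statistic. Intervals are 95%. Alternatives were RLE and upper-quartile scaling, other filters, non-robust moderation, DESeq2 1.42.0, limma-voom and limma 3.58.1 on log2 FPKM with pseudocounts of 1 and 0.1, a threshold of 0.10, a replicate block, and each library left out. Gene length offsets were chosen after seeing the data.

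Values were given in full for called members, for the 6 members of each subset with the smallest p, and, chosen after their values were seen, for E2f1, Cdc6, Mki67 and Pcna. Of each other pathway list the called genes were named, with Cdkn1a, Ccnd1, Myc, Foxm1 and Mybl2. Members and lists were chosen with earlier results of these data known. Intervals cover the spread between libraries.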

Additional observations from a re-analysis of the deposited data

How the results depend on the processing

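The 38 members were refitted under 18 alternatives. None was called lower in any of them, and 7 were called higher in at least 1. With a replicate block the counts over all genes fell to 547 higher and 231 lower, and the mitosis members called to 0 (Top2a 0.39, adjusted p = 0.0582). Deviations of tumors with equal numbers correlated at 0.23, -0.08 and -0.03, and the labels give no pairing. DESeq2 called 1464 genes higher and 1240 lower, beside 1006 and 747 by edgeR. On log2 FPKM, which has no TMM scaling and moved the median of all genes to 0.13 with a pseudocount of 0.1, 1376 genes were higher and 215 lower with a pseudocount of 1, 1438 and 230 with 0.1, and 751 and 95 without a filter. The replication median was then 0.25, 0.26 and 0.25 and the mitosis median 0.16 with 0.1. Replication members higher numbered 2 with 0.1, the added gene being Mcm4, and without a filter 0 members of either subset passed. At an adjusted p under 0.10, 2 mitosis members passed, and with gene length offsets 0 did.

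Counts for other pathway genes changed as follows. Other replication genes higher numbered 3 by DESeq2, 4 on FPKM with either pseudocount, 0 without its filter, 0 with the block and 3 with length offsets, and those lower 2 without a count filter, by DESeq2 or with length offsets and 0 on FPKM. Other mitosis genes higher numbered 2 by DESeq2 and 0 without a count filter, by limma-voom, on unfiltered FPKM, with the block or with length offsets. Those lower numbered 1 with upper-quartile scaling or a minimum of 1 CPM, and 0 on FPKM, with the block or with length offsets. Regulators higher numbered 1 with upper-quartile scaling, limma-voom, FPKM with a pseudocount of 1, the block, non-robust moderation or length offsets, and those lower 2 by DESeq2 and 0 on FPKM.

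Leaving out 1 library gave 388 to 1216 genes higher and 111 to 1023 lower, 0 to 4 replication and 0 to 2 mitosis members higher, and a median difference between subsets of -0.11 to -0.025. Other replication genes ranged from 0 to 5 higher and 1 to 2 lower, other mitosis genes from 0 to 2 and 0 to 1, and regulators from 1 to 2 and 0 to 1. These fits hold fewer tumors.

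Changes near 0 took the other sign in 21 members and in Foxm1, never with an adjusted p under 0.494. On log2 FPKM with pseudocounts of 1 (with or without the filter) and 0.1, in that order, the changes were 0.033 and 0.034 for Mcm7, 0.092 and 0.092 for Pcna, 0.013 and 0.014 for Cdt1, 0.019 and 0.019 for Gins2, 0.024 and 0.027 for Ccne2, 0.023 and 0.025 for E2f1, 0.13 and 0.14 for Ccnb1, 0.10 and 0.11 for Ccnb2, 0.079 and 0.083 for Bub1, 0.13 and 0.14 for Aurka and 0.048 and 0.049 for Foxm1. With upper-quartile scaling they were 0.018 for Ccnb1 and 0.011 for Aurka. With a minimum of 1 CPM they were 0.011 for Ccnb1 and 0.0052 for Aurka. Without a count filter they were -0.012 for Mcm2 and -0.0071 for Ttk. With length offsets they were 0.043 for Pcna, 0.014 for Gins2, 0.033 for Ccnb1, 0.026 for Ccnb2 and 0.030 for Aurka. With 1 library left out, ranges were -0.065 to 0.10 for Aurka, -0.063 to 0.28 for Aurkb, -0.075 to 0.13 for Birc5, -0.17 to 0.035 for Bub1, -0.011 to 0.13 for Bub1b, -0.068 to 0.13 for Ccna2, -0.069 to 0.12 for Ccnb1, -0.14 to 0.085 for Ccnb2, -0.26 to 0.032 for Ccne2, -0.20 to 0.021 for Gins2, -0.021 to 0.15 for Kif20a, -0.064 to 0.056 for Mcm2, -0.078 to 0.18 for Mki67, -0.034 to 0.10 for Nusap1, -0.092 to 0.030 for Pcna, -0.011 to 0.16 for Rrm1, -0.031 to 0.072 for Ttk and -0.030 to 0.18 for Uhrf1. Depth was similar across libraries. TMM factors were 1.00, 0.94 and 0.92 in vehicle tumors 1 to 3 and 1.05, 1.03 and 1.07 in TP-18 tumors 1 to 3. They separated the groups, and the fits on log2 FPKM did not use them. The cause of the sign changes was not tested.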
